A study of Mus musculus with 8 samples.

Results

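Nfatc1, Nfatc2, Nfatc3, Rcan1, Rcan2, Rcan3, Ppp3ca, Ppp3cb and Ppp3r1 encode NFAT transcription factors, subunits of the phosphatase calcineurin and the RCAN regulators of that phosphatase. They were chosen by symbol, as the transcript clusters (the array's probe sets for a gene) that the array's annotation pairs with the 9 names. Of the 9 symbols, 8 were found, each on 1 cluster, among the 19505 genes that carried a single symbol. All 8 passed the filter on dim genes, which kept 10871 genes by their highest signal. Nfatc2 passed it only through its M-CSF signals, and Rcan2 only through its signals with RANKL. The level of Rcan3 was not analysed here. The values are log2 signals on Affymetrix arrays, made from bone marrow cells of C57BL6/J mice.

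The study had 4 cultures, each sampled on day 3 and day 6 after the start of treatment, with 1 array per culture and day. M-CSF received macrophage colony-stimulating factor at 50 ng/ml. M-CSF+RANKL also received RANKL, the cytokine that turns such precursors into osteoclasts, at 100 ng/ml. The PSS1-WT and PSS1-LMS cultures had the same treatment as M-CSF+RANKL and were, on the next day, infected with a retroviral vector that expressed PSS1, wild-type in the former and mutant in the latter. PSS1 is phosphatidylserine synthase 1, the product of Ptdss1. The labels do not give the species of the insert, its mutation, or whether M-CSF and M-CSF+RANKL were infected with an empty vector. No group had a replicate, so a difference on a single day has no error of its own, and 8 arrays limit the precision of every value. Each test between cultures took the difference averaged over both days. Its error came from how far the differences among all cultures in the fit, not the tested pair alone, moved between the days. Each test between days took the day difference averaged over cultures, with an error from its spread among cultures. Neither error covers the spread over animals or separate cultures.

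Calcineurin is a calcium- and calmodulin-dependent phosphatase with a catalytic A subunit and a regulatory B subunit. When calcium rises, it removes phosphates from NFAT proteins, which then enter the nucleus and bind DNA, often beside AP-1. In osteoclast precursors, RANKL and calcium oscillations raise NFATc1, which acts on its own promoter and is known as the master regulator of osteoclast genes. RCAN proteins bind and restrain calcineurin, and a short RCAN1 form is itself made from an internal promoter that responds to NFAT.

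The cultures' identity was checked on marker genes. All 7 osteoclast markers lay above the brightest of the 23 background probe sets on each of the 6 arrays with RANKL, and 0 did in M-CSF. Their summed level, on a log2 scale, ran from 21.30 to 21.46 with RANKL and from 6.87 to 7.83 without. Of the 5 macrophage markers on the array, 5 were above background in M-CSF and 4 or 5 with RANKL. In limma's test 4 of the 5 fell with RANKL, where 12.4% of all measured genes did, and their median difference was -5.32 (log2). Adgre1 was 39.9-fold lower, Cd14 21.1-fold, C1qb 288-fold and C1qa at least 332-fold. Of the 4 measured markers of megakaryocytes and mast cells, 1 was called lower with RANKL, where 12.4% of all measured genes were. That was Pf4, 288-fold lower, while the other 3, Itga2b, Gp9 and Kit, did not pass. In M-CSF, Gp9 and Kit were within background on both arrays and Itga2b on day 6, so Pf4 describes 1 gene more than a cell type. Neutrophil markers went with the day in every culture: 4 of 5 were above background on each day 3 array and 0 on day 6. Markers of B cells and of stromal cells and osteoblasts were within background on all 8 arrays. Of the 7 markers of T and NK cells on the array at most 1, Cd4, was above it, and of the 4 erythroid markers at most 1, Slc4a1. Of the 5 dendritic cell markers, 2 or 3 were above background with RANKL and at most 2 in M-CSF. Of the 3 measured, 2 were called higher with RANKL (14.1% of all genes): H2-Aa, at least 1.59-fold, and Itgax, within background on both M-CSF arrays and on M-CSF+RANKL day 3. In such mixed cultures, fewer cells of a type and less RNA per cell cannot be told apart. Ptdss1 was at 18.91 and 18.06 in PSS1-WT and at 18.79 and 17.50 in PSS1-LMS on days 3 and 6, and between 9.56 and 10.36 on the other 4 arrays.

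With RANKL, 2 of the 3 NFAT factors and both measured RCAN regulators passed the test, the call of Rcan2 depending on how background is treated, and none of the 3 calcineurin subunits passed. Of the 8 genes, 3 were called higher in M-CSF+RANKL than in M-CSF (Nfatc1, Rcan1 and, with that limit, Rcan2). In the other direction 1 was called lower (Nfatc2), and 4 did not pass limma's test. Nfatc2 and Rcan2 passed the filter only through the side on which they were high, so their calls are not independent of the filter. Over all measured genes, 26.4% passed (14.1% higher and 12.4% lower). The median difference of the 8 genes was 0.20 on the log2 scale (0.04 with genes within background taken at their bound), and that of all measured genes was 0.03. The 4 that did not pass had among the smaller ranges over the 8 arrays, from 0.38 for Ppp3cb to 0.89 for Ppp3ca, where the median over measured genes was 1.38. The 4 that passed ranged over 3.46 log2 units (Nfatc2) to 6.47 (Nfatc1). Within the 6 arrays with RANKL, the range of Nfatc1 was 1.14, and the ranges of the other 7 genes ran from 0.34 to 0.94.

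**Figure D1:**
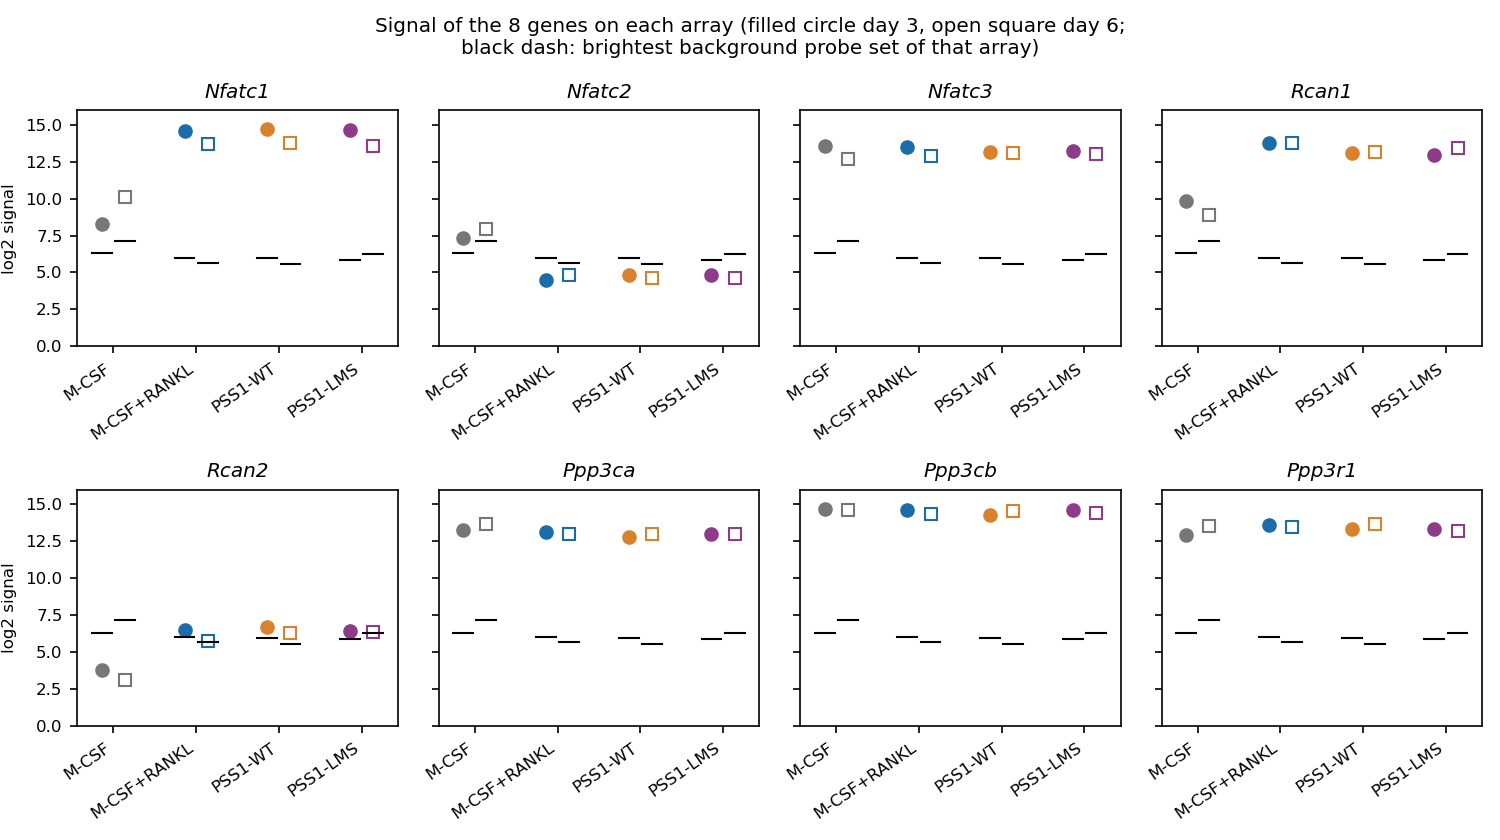
Log2 signal (vertical axis) of the 8 measured genes in the 4 cultures on days 3 and 6, 1 array per point. Nfatc1 and Rcan1 lay between 12.94 and 14.74 on the 6 arrays with RANKL and between 8.27 and 10.09 on the M-CSF arrays, and Ppp3cb stayed between 14.29 and 14.67 throughout.

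Nfatc1 had the widest range of the 8 genes. Its log2 signal in M-CSF was 8.27 on day 3 and 10.09 on day 6. In M-CSF+RANKL it was 14.61 and 13.71, in PSS1-WT 14.74 and 13.75, and in PSS1-LMS 14.67 and 13.60. The 6 arrays with RANKL lay above both M-CSF arrays with no overlap, and among them every day 3 signal was above every day 6 signal. M-CSF+RANKL exceeded M-CSF by 4.98 ± 0.68 (log2, SE), a 31.6-fold difference (95% interval 3.41 to 6.56 in log2, limma adjusted p = 0.00135). The difference was 6.34 (81.1-fold) on day 3 and 3.63 (12.3-fold) on day 6, so the size of the mean rests on which M-CSF array enters. Without the M-CSF day 3 array it was 3.58 and without the M-CSF day 6 array 6.39, and the test was passed both ways. Without the M-CSF+RANKL day 3 array it was 4.58 and without that of day 6 it was 5.39.

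Nfatc2, a factor best known from T cells, went the other way. It was at 7.34 and 7.94 in M-CSF on days 3 and 6, above all 23 background probe sets on both arrays. With RANKL it was at 4.48 and 4.84 in M-CSF+RANKL, at 4.83 and 4.62 in PSS1-WT and at 4.81 and 4.63 in PSS1-LMS. All 6 of these signals were within the background of their arrays, so the level with RANKL has an upper bound alone. M-CSF+RANKL was lower by at least 3.49-fold, the M-CSF signal over the brightest background of the M-CSF+RANKL arrays. The difference as measured was -2.98 ± 0.33 (log2, SE, limma adjusted p = 0.000464), with -2.86 on day 3 and -3.10 on day 6. T cells also express Nfatc2. The markers of T and NK cells summed to 6.97 and 8.62 (log2) on the M-CSF arrays and to between 6.94 and 7.57 with RANKL, with at most 1 of 7 above background on any array. The macrophage markers summed to 17.50 and 18.76 on the M-CSF arrays and to between 16.39 and 16.76 with RANKL. Those of megakaryocytes and mast cells summed to 15.03 and 14.81 in M-CSF and to between 7.70 and 8.34 with RANKL. In M-CSF that sum was almost all Pf4, at 15.03 and 14.81 by itself, so it describes 1 gene more than a cell type. The part of these markers in the result was not tested.

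Nfatc3, the NFAT factor found in many cell types, held a narrow band. Its 8 signals ran from 12.71 (M-CSF, day 6) to 13.56 (M-CSF, day 3), so both extremes were M-CSF arrays and the groups overlapped fully. The RANKL difference was 0.08 (log2, 95% interval -0.66 to 0.82, limma adjusted p = 0.883). That interval leaves room for a change of either sign well under that of Nfatc1 and Nfatc2.

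The calcineurin subunits did not pass the RANKL test. Ppp3ca, which encodes the catalytic subunit A alpha, was at 13.27 and 13.70 in M-CSF and between 12.81 and 13.15 on the arrays with RANKL. Both M-CSF signals lay above all 6 others, but the difference, -0.43 (log2, 95% interval -1.11 to 0.26), did not pass (limma adjusted p = 0.345). Ppp3cb, for the catalytic subunit A beta, had the narrowest range of the 8 genes, and 0.81% of measured genes had a range as small or smaller. Its RANKL difference was -0.16 (95% interval -0.84 to 0.52). Ppp3r1, for the regulatory subunit B, was at 12.91 and 13.52 in M-CSF and between 13.16 and 13.66 with RANKL, and its difference was 0.33 (95% interval -0.41 to 1.07).

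The regulator Rcan1 rose with RANKL. It was at 9.87 and 8.87 in M-CSF on days 3 and 6, at 13.78 and 13.77 in M-CSF+RANKL, at 13.10 and 13.14 in PSS1-WT and at 12.94 and 13.43 in PSS1-LMS. The lowest array with RANKL was far above both M-CSF arrays, and M-CSF+RANKL gave the top 2 signals. M-CSF+RANKL exceeded M-CSF by 4.40 ± 0.39 (log2, SE), or 21.1-fold (95% interval 3.50 to 5.30, limma adjusted p = 0.000163). The difference was 15.0-fold on day 3 and 29.7-fold on day 6.

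Rcan2, a related calcineurin regulator, was dim everywhere. It was at 3.77 and 3.06 in M-CSF, at 6.49 and 5.74 in M-CSF+RANKL, at 6.68 and 6.31 in PSS1-WT and at 6.39 and 6.36 in PSS1-LMS. The M-CSF signals were within background, and each array with RANKL was above all 23 background probe sets of its own array, by as little as 0.08 in M-CSF+RANKL on day 6. The measured difference was 2.70 ± 0.31 (log2, SE, limma adjusted p = 0.000599). No fold is given, because the brightest background probe set of the M-CSF day 6 array, at 7.13, was above every Rcan2 signal. The second brightest on that array was at 5.56, so this limit rests on 1 probe set. With each signal raised to at least its array's brightest background, the difference turned to -0.59 (limma adjusted p = 0.275), so the call depends on how background is treated.

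**Figure D2:**
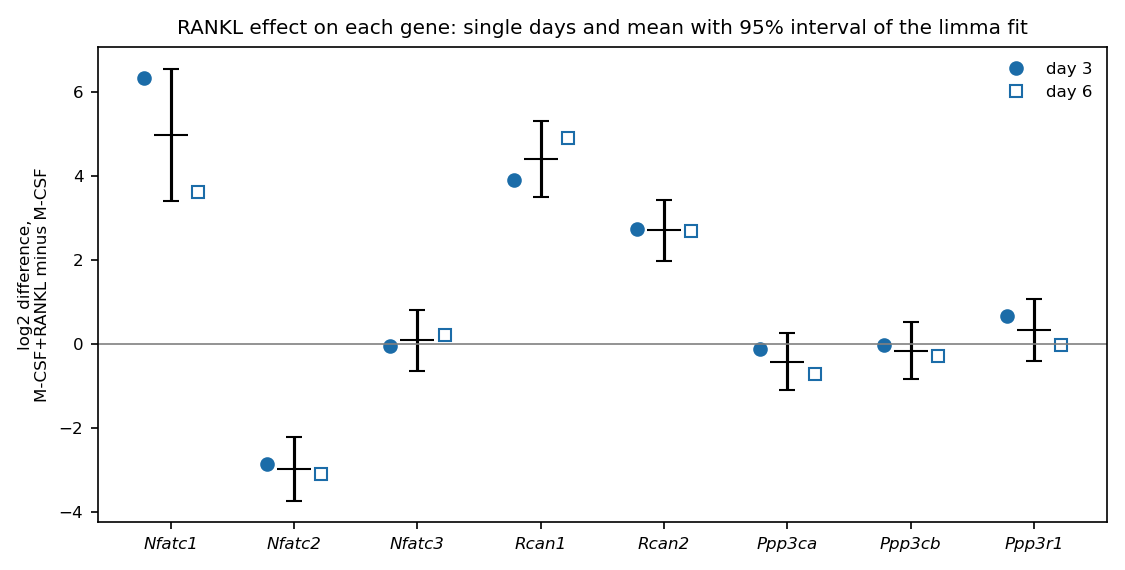
Difference M-CSF+RANKL minus M-CSF (log2) for the 8 genes, as the mean over both days with its 95% interval and the single-day differences. Nfatc1 (4.98) and Rcan1 (4.40) lay furthest above 0 and Nfatc2 (-2.98) furthest below, while the intervals of Nfatc3, Ppp3ca, Ppp3cb and Ppp3r1 spanned 0.

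The sequences upstream of the start sites of Rcan1 and Rcan2 are shown because these regulators were called higher with RANKL, Rcan2 only as measured without raising signals to background, and each has more than 1 annotated start. They are the 250 bases before a start in RefSeq (GRCm38.p6), 5′ to 3′ on the gene's strand. Capitals mark the NFAT core GGAAA and the AP-1 motif TGANTCA, searched on both strands, so TTTCC is the core on the other strand. The first Rcan1 window is chr16:92466170-92466419 (minus strand), and the internal one is chr16:92400079-92400328 (minus strand), 66091 bases into the gene. The first Rcan2 window is chr17:43801102-43801351 (plus strand), and the internal one shown is chr17:43952749-43952998 (plus strand), 151647 bases into the gene.
Rcan1 first start: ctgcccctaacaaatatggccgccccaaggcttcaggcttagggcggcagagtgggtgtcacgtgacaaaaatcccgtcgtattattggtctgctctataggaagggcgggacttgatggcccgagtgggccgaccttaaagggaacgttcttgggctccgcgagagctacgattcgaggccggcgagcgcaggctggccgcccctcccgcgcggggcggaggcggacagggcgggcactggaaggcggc
Rcan1 internal start: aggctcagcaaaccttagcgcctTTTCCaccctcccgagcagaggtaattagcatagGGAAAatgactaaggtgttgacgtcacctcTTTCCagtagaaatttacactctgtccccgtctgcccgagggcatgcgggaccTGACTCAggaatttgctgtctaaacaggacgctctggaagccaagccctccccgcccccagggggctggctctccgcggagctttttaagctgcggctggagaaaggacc
Rcan2 first start: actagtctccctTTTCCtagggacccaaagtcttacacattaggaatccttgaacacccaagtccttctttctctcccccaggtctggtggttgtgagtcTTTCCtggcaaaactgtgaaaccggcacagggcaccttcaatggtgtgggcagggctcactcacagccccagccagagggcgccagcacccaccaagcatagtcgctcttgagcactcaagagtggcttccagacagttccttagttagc
Rcan2 internal start: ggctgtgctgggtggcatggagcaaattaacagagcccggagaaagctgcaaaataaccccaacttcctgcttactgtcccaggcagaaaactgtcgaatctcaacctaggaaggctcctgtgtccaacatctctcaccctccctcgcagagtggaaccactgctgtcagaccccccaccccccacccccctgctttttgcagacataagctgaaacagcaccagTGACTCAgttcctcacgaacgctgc

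The 2 Rcan1 windows differed in both motifs. The first held 0 of either, and the internal one held 3 NFAT cores, at 227, 193 and 163 bases before the start, and 1 AP-1 motif at 110 bases. Of 32851 windows of the same length in the table, 55.6% held the NFAT core, 6.75% the AP-1 motif and 3.82% both. The first Rcan2 window held 2 NFAT cores and no AP-1 motif, and the internal one shown held an AP-1 motif 25 bases before the start and no NFAT core. Another internal Rcan2 window, 499 bases into the gene and not shown, held neither. Over the 12 windows of 7 of the genes, that of Rcan3 included, 7 held the core and 2 the AP-1 motif. A match describes letters, not a bound site, and a gene-level cluster cannot tell which start was used. No windows of Nfatc1 or Ppp3ca were searched here, so nothing is said of their motifs.

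Nfatc1 changed with time in opposite directions with and without RANKL. From day 3 to day 6 its signal fell by 0.90 in M-CSF+RANKL, by 0.99 in PSS1-WT and by 1.07 in PSS1-LMS (log2), and it rose by 1.82 in M-CSF. Over the 6 arrays with RANKL the day difference was -0.99 ± 0.20 (log2, SE, 95% interval -1.41 to -0.56), a 1.98-fold drop (limma adjusted p = 0.0116). Nfatc1 was the 1 of 8 genes called there, against 3.38% of all measured genes (1.31% higher and 2.07% lower). With M-CSF included, where 0.285% of genes were called, 0 of the 8 passed limma's day test and 0 had an unadjusted p under 0.05. The Nfatc1 day difference was then -0.28 ± 0.48 (limma adjusted p = 0.910).

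The difference between these time courses was fitted in a comparison chosen after the data were seen, because of this Nfatc1 pattern, so its p describes the difference and is not independent support. The day change of M-CSF minus the mean day change of the 3 cultures with RANKL was 2.81 ± 0.40 for Nfatc1 (log2, SE, 95% interval 1.96 to 3.65, limma adjusted p = 0.000199). Of all measured genes, 22.3% passed this test (12.8% higher and 9.49% lower), and of the 8 genes 1 did, which is near that share. M-CSF has 1 array per day, so the error came from how far the RANKL cultures' day changes differ among themselves. Rcan1 had the next strongest difference, -1.17 (limma adjusted p = 0.0533): its signal in M-CSF went from 9.87 to 8.87, and its day change was -0.01 in M-CSF+RANKL, 0.04 in PSS1-WT and 0.49 in PSS1-LMS.

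The other 7 genes did not pass the day test with RANKL. Rcan2 fell in each culture as measured, by 0.70 in M-CSF, 0.75 in M-CSF+RANKL, 0.37 in PSS1-WT and 0.03 in PSS1-LMS, and its difference over the arrays with RANKL was -0.38 (95% interval -0.84 to 0.07). Nfatc3 was lower on day 6 in all 4 cultures too, by 0.05 to 0.84, and its difference with RANKL was -0.27 (95% interval -0.71 to 0.17). The subunits Ppp3ca, Ppp3cb and Ppp3r1 had differences of 0.01, -0.08 and 0.02. Beside these day values, the neutrophil markers on the arrays with RANKL summed to between 11.98 and 12.90 on day 3 and between 6.55 and 6.99 on day 6, on a log2 scale; their part in the result was not tested.

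**Figure D3:**
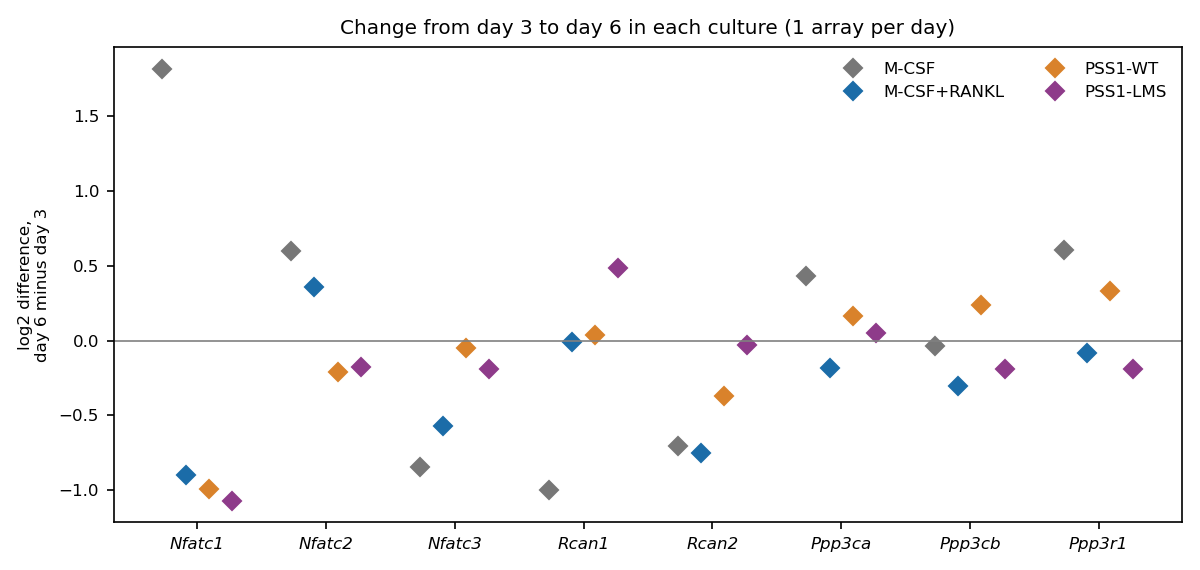
Day 6 minus day 3 (log2) of the 8 genes in each of the 4 cultures, 1 point per culture. For Nfatc1 the M-CSF point is at 1.82, and the 3 cultures with RANKL lie between -1.07 and -0.90.

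None of the 8 genes passed the test in a PSS1 comparison. In PSS1-WT minus M-CSF+RANKL, limma called 0 of the 8 and 0.0092% of all genes, which is Ptdss1 alone (746 genes had an unadjusted p under 0.05). In PSS1-LMS minus M-CSF+RANKL it called 0 of the 8 and 0.175% of all genes (714 at an unadjusted p under 0.05). Each comparison had 1 of the 8 genes, Rcan1, at an unadjusted p under 0.05. In PSS1-LMS minus PSS1-WT, limma called 0 of the 8 and 0% of all genes, with 773 genes and 0 of the 8 at an unadjusted p under 0.05. The first pair of comparisons share the M-CSF+RANKL arrays, so their values are not separate evidence.

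Rcan1 had the largest PSS1 differences of the 8 genes. Both PSS1 cultures were below M-CSF+RANKL on both days, by 0.68 and 0.63 in PSS1-WT and by 0.83 and 0.33 in PSS1-LMS on days 3 and 6 (log2). The mean difference was -0.65 ± 0.25 (SE, 95% interval -1.19 to -0.11) for PSS1-WT, with a limma adjusted p of 0.679. For PSS1-LMS it was -0.58 ± 0.25 (95% interval -1.12 to -0.05), with a limma adjusted p of 0.719. Neither held up after adjustment over all genes. PSS1-LMS minus PSS1-WT was 0.07 (95% interval -0.47 to 0.60).

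For Nfatc1 the PSS1 differences were small beside the RANKL difference. PSS1-WT minus M-CSF+RANKL was 0.08 (95% interval -0.44 to 0.60), PSS1-LMS minus M-CSF+RANKL was -0.03 (-0.55 to 0.49), and PSS1-LMS minus PSS1-WT was -0.11 (-0.63 to 0.41), all in log2. Ppp3r1 had the lowest value of PSS1-LMS minus PSS1-WT, -0.23 (95% interval -0.77 to 0.31), and Ppp3cb the highest, 0.11 (-0.43 to 0.64). Rcan2 was above M-CSF+RANKL by 0.37 in PSS1-WT (95% interval -0.18 to 0.93) and by 0.26 in PSS1-LMS (-0.29 to 0.81). The same sign on both days was seen for 3 of the 8 genes in PSS1-WT and for 2 in PSS1-LMS. The intervals allow changes of up to 1.19 log2 units, so values that miss the threshold do not show that the cultures were alike.

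**Figure D4:**
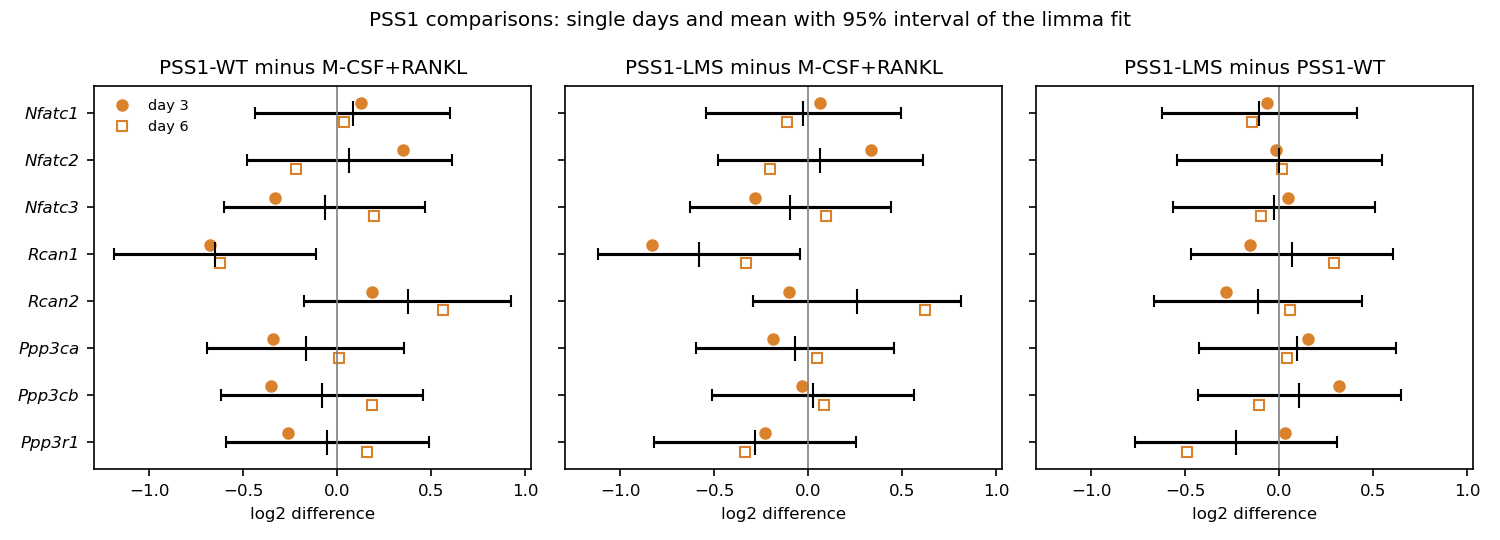
Log2 differences of the 8 genes with 95% intervals, for each PSS1 culture minus M-CSF+RANKL and for PSS1-LMS minus PSS1-WT. The intervals of Rcan1 against M-CSF+RANKL lie below 0 before adjustment over all genes, and every other interval spans 0.

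The genes with the most similar profiles were found for Nfatc1, Nfatc2 and Rcan1 by the root mean square distance (log2) between centred profiles over the 8 arrays. For Nfatc1 the 5 nearest of 10870 genes were Oaf (0.22), Chpf (0.25), Prdm1 (0.32), Spa17 (0.33) and Zfp462 (0.37), against a median distance of 2.27 over all genes. Prdm1 encodes the repressor Blimp1. Oaf was at 9.80 and 8.58 in M-CSF+RANKL and at 3.30 and 4.57 in M-CSF on days 3 and 6, so its measured signals were also lower on day 6 with RANKL and higher without. Of the 5, Prdm1 alone was above background in M-CSF, at 7.88 and 8.74. For Rcan1 they were Siglec15 (0.18), a receptor of osteoclasts, Spint2 (0.19), Net1 (0.22), Itgav (0.24) and Lgalsl (0.26), with a median of 1.79. Siglec15, Spint2 and Lgalsl were within background on both M-CSF arrays and Net1 on 1. For Nfatc2 they were Zcchc24 (0.15), Rxra (0.19), Dennd4b (0.20), Lmo2 (0.21) and Nfic (0.21), with a median of 1.33. Like Nfatc2, Zcchc24, Rxra and Lmo2 were within background on all 6 arrays with RANKL. Where a signal is within background the likeness is of levels not measured, and these distances carry no test.

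**Figure D5:**
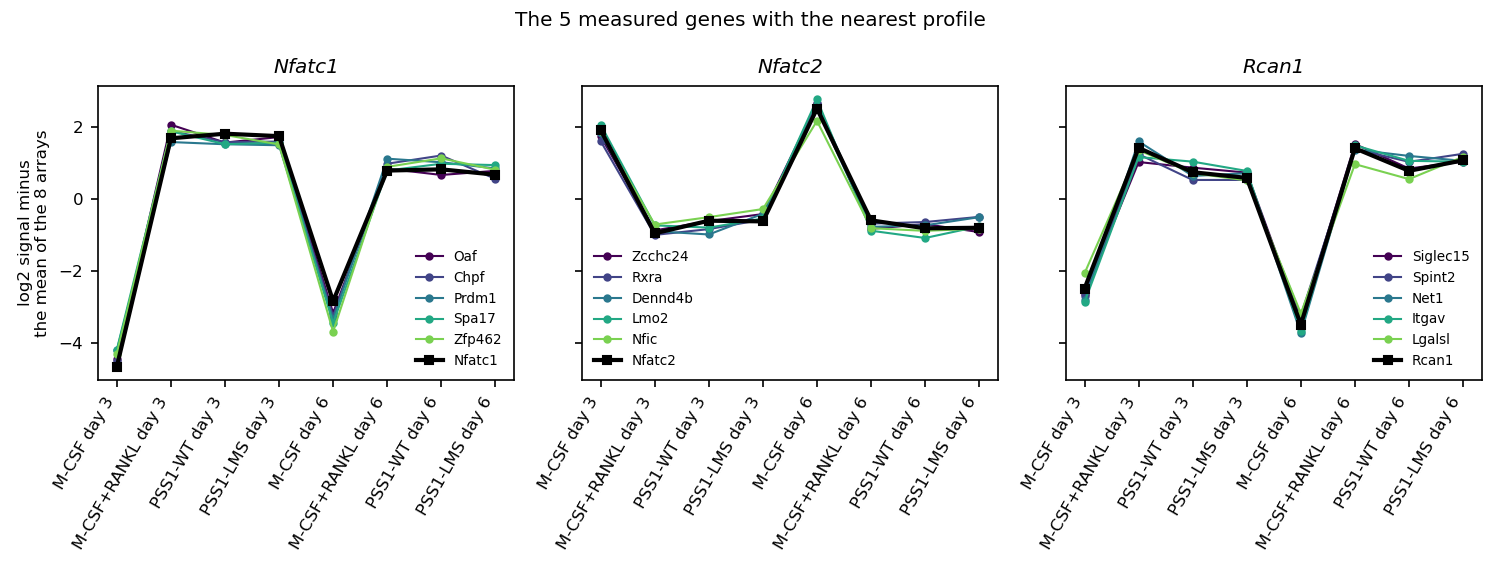
Centred log2 profiles of Nfatc1, Nfatc2 and Rcan1 over the 8 arrays, each with the 5 measured genes nearest to it. The nearest genes lie within a root mean square distance of 0.37 for Nfatc1, 0.21 for Nfatc2 and 0.26 for Rcan1.

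Other genes of the calcineurin and NFAT pathway gave a mixed picture with RANKL. Of 20 listed, 15 were measured, of which 3 rose and 1 fell, near the 14.1% and 12.4% of all genes, and their median difference was 0.27 (log2). Dyrk2, a kinase that phosphorylates NFAT, rose by 2.32 ± 0.49 (log2, SE, limma adjusted p = 0.0103). Chp1, a calcineurin B-like protein that inhibits calcineurin, rose by 2.26 ± 0.33, and the kinase Csnk1a1 rose by 0.95 ± 0.29. Calm3, 1 of the genes for calmodulin, fell by 1.20 ± 0.30. Nfat5, the NFAT relative that does not depend on calcineurin, differed by 0.71 and did not pass (limma adjusted p = 0.209).

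Among genes upstream of the calcium signal, 15 of 18 listed were measured, and 1 was called higher and 4 lower with RANKL, with a median of -0.31 (log2). Of all genes, 14.1% were higher and 12.4% lower. Fcer1g, the Fc receptor gamma chain whose ITAM motif costimulates RANK, fell by 1.96 ± 0.47 (SE), and the store-operated calcium channel gene Orai1 fell by 1.38 ± 0.35. The other calls, Orai2 higher and Trpv4 and Stim1 lower, had all their signals within background on both sides, so their level was not measured.

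Of 12 measured genes known to induce Nfatc1, 8 rose with RANKL and 0 fell, against 14.1% and 12.4% of all genes, with a median of 1.64 (log2). Jun, Rela, Relb and Mitf did not pass. The largest rises were those of the AP-1 family members Jdp2 (at least 519.5-fold), Fosl2 (at least 66.6-fold) and Fos (at least 46.9-fold), and of Prdm1 (34.8-fold). Of 5 measured repressors of osteoclast formation, Id1 and Id2 did not pass and 3 were lower (12.4% of all genes). Rbpj fell by 3.50 (log2), Bcl6 fell by 2.64, and Irf8 was at least 1.94-fold lower. Both lists hold genes known for their part in osteoclast formation and were chosen with earlier results of these data known. Their counts are therefore not independent evidence of direction. In the day comparison within RANKL cultures, 1 of the 12 inducers was called, where 3.38% of all genes were (2.07% lower), so nothing is read from that count. That inducer was Fosl2, lower by 2.04-fold (log2 -1.03 ± 0.20, limma adjusted p = 0.0102). A link with the day change of Nfatc1 was not tested.

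All 12 listed NFATc1 targets in osteoclasts rose with RANKL, where 14.1% of all measured genes did. For 11 of them at least 1 M-CSF signal was within background, and the median difference was at least 8.06 (log2) with these at their bound, against 11.30 as measured. The list was drawn from osteoclast genes and holds all 7 osteoclast markers used above for the cultures' identity. This count is therefore not independent evidence of its direction. From day 3 to day 6 with RANKL, limma called 0 of the 12 (3 had an unadjusted p under 0.05), where 3.38% of all genes were called, so nothing is read from that count, and their median was 0.02, where that of all measured genes was -0.03. The signals of Acp5, Ctsk and Mmp9 with RANKL were at 19.39 or above, near the highest value of the table, 19.93, so a change there could be compressed. In M-CSF, Atp6v0d2, a subunit of the proton pump picked here after its values were seen, went from 4.23 on day 3 to 12.55 on day 6, beside the Nfatc1 rise of 1.82. The day 3 signal was within background, and the choice of gene allows no test. In the day change of M-CSF minus the RANKL cultures, 3 of the 12 targets were called higher (Atp6v0d2, Acp5 and Clcn7) and 1 lower (Slc4a2), where 12.8% and 9.49% of all genes were. Of these 4 genes, Clcn7 alone was above background on both M-CSF arrays, at 10.19 on day 3 and 11.92 on day 6. Acp5 and Slc4a2 were within background on both.

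Targets of NFAT in lymphocytes were mostly dim. Of 9 listed, 4 were measured, and limma called 0 of them with RANKL (1 had an unadjusted p under 0.05). Of all measured genes 26.4% were called, and with 4 genes nothing is read from that count. Egr2, an early growth response factor, was the 1 of 4 called from day 3 to day 6 with RANKL (3.38% of all genes), higher by 1.38 ± 0.22 as measured (log2, SE, limma adjusted p = 0.00195). Its day 3 signal in M-CSF+RANKL, 5.76, was within background, and those in the PSS1 cultures, 6.22 and 5.95, were just above it. In the PSS1 comparisons, limma called 0 genes in any of the 6 lists, and between 0 and 3 members of a list had an unadjusted p under 0.05. The 3 were among the 4 measured lymphocyte targets, in PSS1-LMS minus PSS1-WT, with a median of -0.67 (log2). In that comparison 773 of 10871 genes had such a p.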

How the data were processed

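Levels were measured on 8 Affymetrix arrays of mouse bone marrow cultures, 1 for each of 4 cultures on 2 days. The authors deposited log2 signals in 1 table of 28846 features, and they were used as deposited. The values themselves gave the scale, and the authors' probe summarisation and normalisation are not given in the sources used here. Array medians lay between 4.80 and 4.93. The cluster of highest mean stood for a gene with several. A gene was measured where its highest signal reached 4.86, the 50th percentile of the table. Signals at or under the brightest of 23 background probe sets of their array (5.54 to 7.13) are called within background. Where the lower side was so, a fold is given against that background, as "at least".

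The model had additive terms for culture and day and was fitted by lmFit and eBayes of limma 3.58.1 (R 4.3.3), on all 8 arrays for RANKL and day, and on the 6 arrays with RANKL for PSS1 and for the day effect with RANKL. Residual degrees of freedom were 3 and 2, and eBayes added 4.71 and 13.3 shared over genes, so p-values rest mostly on spread pooled over genes. P-values were adjusted (Benjamini-Hochberg) over 10871 genes, with a threshold of 0.05. The fits were tested on simulated data. All members are named. List members are named up to the 4 largest called in each direction, and all where 5 or fewer were called; the 5 nearest profiles are named. Members and lists were chosen with earlier results of these data known. Filters, scalings, background treatment and left-out arrays were varied.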

Additional observations from a re-analysis of the deposited data

Results flagged for a closer look

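The day change of Nfatc1 differed between cultures without and with RANKL. From day 3 to day 6 its log2 signal changed by 1.82 in M-CSF, by -0.90 in M-CSF+RANKL, by -0.99 in PSS1-WT and by -1.07 in PSS1-LMS. The comparison was taken up because the M-CSF culture moved one way and all 3 cultures with RANKL the other. The difference was 2.81 ± 0.40 (log2, SE, limma adjusted p = 0.000199), and 22.3% of all measured genes passed the same test. The comparison was chosen for this pattern, so its p is not independent support. The 14 alternatives that could be fitted gave 2.63 to 2.88, but none of them leaves out an M-CSF array, on which the value rests. M-CSF is 1 array per day. The Nfatc1 signal on these arrays was above every background probe set, by 1.98 on day 3 and 2.96 on day 6. Neutrophil markers on the M-CSF arrays summed to 12.11 on day 3 and 7.06 on day 6 (log2), beside 11.98 to 12.90 and 6.55 to 6.99 with RANKL; their part was not tested.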

How the results depend on the processing

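The RANKL calls of Nfatc1, Nfatc2 and Rcan1 kept their direction and passed under all 18 alternatives, at 3.58 to 6.39, -3.29 to -1.80 and 3.81 to 4.99 (log2). The lower day 6 level of Nfatc1 with RANKL passed under all 14, at -1.03 to -0.89. Without either M-CSF array the day effect is that of the RANKL cultures, and Nfatc1 passed at -0.99. With signals raised to each array's brightest background, Rcan2 reversed. It went to -0.59 for RANKL (limma adjusted p = 0.275) and to 1.22 for the day change of M-CSF minus RANKL cultures (limma adjusted p = 0.0372). The single brightest probe set was brighter on the M-CSF arrays, at 6.29 and 7.13, than on the others. The second brightest was at 5.92 and 5.56, beside 5.35 to 5.92 on the other arrays, and the median background was 4.55 on every array. With this treatment, 2 of the genes were higher in that day change comparison. Rcan1 passed as lower there (1 gene, not 0) under the stricter filter, quantile normalization, raised background and the eBayes trend, and in some fits without 1 array (adjusted p from 0.0233 to 0.145 over alternatives).

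No PSS1 comparison called any of the 8 genes under any of 15 alternatives, but counts over all genes moved. PSS1-WT called 2 genes with the stricter filter, 8 with raised background and 2 with the trend (1 as reported). PSS1-LMS called 2 with no filter, 37 with the stricter one, 1 when centred, 1 after quantile normalization, 56 with raised background, 43 with the trend and 1 with all 8 arrays (19 as reported). PSS1-LMS against PSS1-WT called 8, 31 and 7 with the stricter filter, raised background and trend (0 as reported). The day effect called 20 with the stricter filter (31 as reported), and the day effect with RANKL 230 with no filter (367 as reported). Leaving out 1 array each gave 1198 to 4545 for RANKL (2875 as reported), 3 to 61 for PSS1-WT, 11 to 83 for PSS1-LMS, 0 to 48 for PSS1-LMS against PSS1-WT, 10 to 367 for day (0 to 1 of the 8 genes), 270 to 678 for day with RANKL, and 0 to 1 of the 8 lower in the M-CSF comparison. Apart from the background, the cause was not tested. Rcan2 did not pass the stricter filter, and the M-CSF day change cannot be fitted without either M-CSF array. No paired analysis was possible because the labels carry no shared replicate numbers; the day is a term of each fit. Signals near background limit Nfatc2 with RANKL and Rcan2 throughout.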
